A study of Homo sapiens with 12 samples.

Results

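The 9 genes described here are p53 targets and cyclin-dependent kinase inhibitors: MDM2, CDKN1A, CDKN1B, CDKN2A, CDKN2C, GDF15, BAX, BBC3 and TIGAR. They were chosen by symbol from a table of 28278 genes, and each symbol matched 1 row. RNA was sequenced from the human embryonic stem cell (hESC) line WA26, with UBQLN1 intact (WT) or with UBQLN1 disrupted by CRISPR-Cas9 (UBQLN1-/-, KO). UBQLN1 encodes ubiquilin 1, a shuttle protein that carries ubiquitinated proteins to the proteasome. The study asked how loss of UBQLN1 changes hESCs and what less oxidative stress does to the KO cells, which were grown at 5% O2 or with the antioxidant N-acetylcysteine (NAC). The 4 kinds of culture compared had 2 libraries each: WT hESCs at normal O2, KO hESCs at normal O2, KO hESCs at 5% O2, and KO hESCs with NAC. No other allele or agent is named in the labels, and those of the NAC libraries give no O2 level. The study used DMSO as the control for NAC, but the labels do not say whether the untreated libraries received it. The study's text and its scheme give different lengths of low-O2 culture before RNA-seq and the labels give none, so treatment and length of exposure cannot be told apart between NAC and 5% O2. Clones were picked for both genotypes, and the labels do not say which clone gave which library, nor whether the 2 libraries of a group were separate cultures. The study calls them biological replicates, and the p-values measure only the spread between these libraries. Treated WT hESCs (4 of the 12 labelled samples) were not analysed here. Each treatment was therefore compared within KO cells, and the responses of WT and KO cells were not set against each other.

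The transcription factor p53 is held low in unstressed cells by MDM2, a ubiquitin ligase that marks it for degradation and whose own gene p53 switches on. Stabilised p53 induces CDKN1A, the p21 protein that inhibits cyclin-dependent kinases and slows the cell cycle, as well as BAX and BBC3 (PUMA), which permeabilise mitochondria and start apoptosis. TIGAR lowers glycolytic flux and helps keep glutathione reduced, and GDF15 is a secreted stress hormone induced by p53 and by the integrated stress response. CDKN1B (p27) inhibits the same kinases as p21 but is controlled mainly through protein degradation. CDKN2A encodes p16 and p14ARF. Its p16 product and CDKN2C (p18) belong to the INK4 group, which blocks CDK4 and CDK6. Pluripotent stem cells are known for a short G1 phase and little INK4 expression.

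For the 6 genes that are p53 targets by common description, the best match to the p53 response element near the gene is shown, so that the DNA through which p53 could act on each gene can be read. The element is made of 2 half-sites of 10 bases separated by 0 to 2 bases. It was searched on both strands in hg38, within 2500 bases on each side of the transcript starts scanned, requiring the C and the G of each half-site core. MDM2 had 4 such starts and each other gene shown had 1. Not every annotated start was scanned. Capitals mark the 4-base core of each half-site.
MDM2: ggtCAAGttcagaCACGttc
CDKN1A: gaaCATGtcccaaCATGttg
GDF15: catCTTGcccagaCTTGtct
BAX: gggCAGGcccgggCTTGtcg
BBC3: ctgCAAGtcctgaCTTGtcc
TIGAR: agaCATGtccacagaCTTGtct
The TIGAR sequence, at chr12:4321615-4321636 on the plus strand and 413 bases downstream of the start, matched 20 of 20 element letters, as 0.19% of the 27305 genes scanned did. Those of MDM2 (chr12:68808923-68808942, plus strand, 84 bases upstream of one of its 4 starts), CDKN1A (chr6:36676449-36676468, plus, 2255 bases upstream), GDF15 (chr19:18385308-18385327, plus, 840 bases upstream) and BAX (chr19:48955213-48955232, plus, 348 bases downstream) each matched 18, a score that 12.8% of all genes reached or passed. The RefSeq record of CDKN1A begins at chr6:36676463, inside its element, and that start was not the one scanned. BBC3 matched 17 at chr19:47231320-47231339 on the minus strand, 1337 bases downstream, and 47.5% of genes did as well or better. CDKN2A also reached 18, and CDKN1B and CDKN2C reached 17, so apart from TIGAR the scan did not set the p53 targets apart from the kinase inhibitors. A match of letters is a description and not a measured binding site.

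The libraries held between 31236968 and 41639350 counted reads. All 6 pluripotency markers, such as POU5F1 and SOX2, were read in every library, with summed levels of 3972 to 5687 normalized CPM (read counts scaled to library size), against 4.18 to 14.8 for 9 germ layer markers. With NAC, 2 of the 6 were lower than in untreated KO and 0 higher, where 20.8% of all tested genes fell and 23.8% rose. They were DNMT3B (log2 fold change -0.97, edgeR adjusted p = 2.7e-05) and NANOG (-0.31, adjusted p = 0.014). UBQLN1 was at 221 and 197 CPM in WT and at 42.3 and 43.5 in KO at normal O2, 51.9 and 47.7 in KO at 5% O2, and 62.4 and 49.3 in KO with NAC. It was 4.88-fold lower in KO than in WT (log2 fold change -2.29, SE 0.12, edgeR adjusted p = 2.5e-06), so the labels and the targeted gene went together. The first NAC library stood apart from the other 7. Of the 7 stromal markers checked, DCN and LUM, a proteoglycan pair of connective tissue, had 1809 and 148 counts there and 0 in every other library, and COL3A1 had 1114 counts against 0 to 8. Summed over the list, the stromal markers reached 935 CPM in that library, against 546 in the other NAC library, 569 and 581 in WT, 600.3 and 627 in KO, and 511 and 540 at 5% O2. In the other 7 libraries, THY1 (332 to 415 CPM) and COL1A2 (113 to 163 CPM) made up most of that sum. The 7 tested genes are therefore also given without 1 NAC library where that changed a call, and the further gene lists by how many calls were kept.

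Compared per kilobase of the canonical transcript, in WT hESCs BAX had the highest level of the 9 genes at 122 ± 14.4 RPKM (SD, n = 2). It was followed by CDKN1B at 19.8 ± 2.07, BBC3 at 12.8 ± 0.967, MDM2 at 7.38 ± 0.0388, CDKN1A at 5.13 ± 0.385, TIGAR at 4.19 ± 0.235 and GDF15 at 2.68 ± 0.431 RPKM. CDKN2A was at 0.118 ± 0.0925 RPKM and CDKN2C was not detected in WT. At hESC baseline the pro-apoptotic BAX was thus read far above the p53 inhibitor MDM2 and the p21 gene per kilobase, and CDKN2A and CDKN2C were at the limit of detection. The gap to MDM2 depends on the canonical lengths used, 795 bases for BAX and 7490 for MDM2. Without scaling by length, WT means were 96.6 CPM for BAX, 55.3 for MDM2 and 10.9 for CDKN1A. Which transcripts of each gene were in use was not measured. The filter on low counts kept 7 of the 9 genes for testing and left out CDKN2A and CDKN2C.

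**Figure D1:**
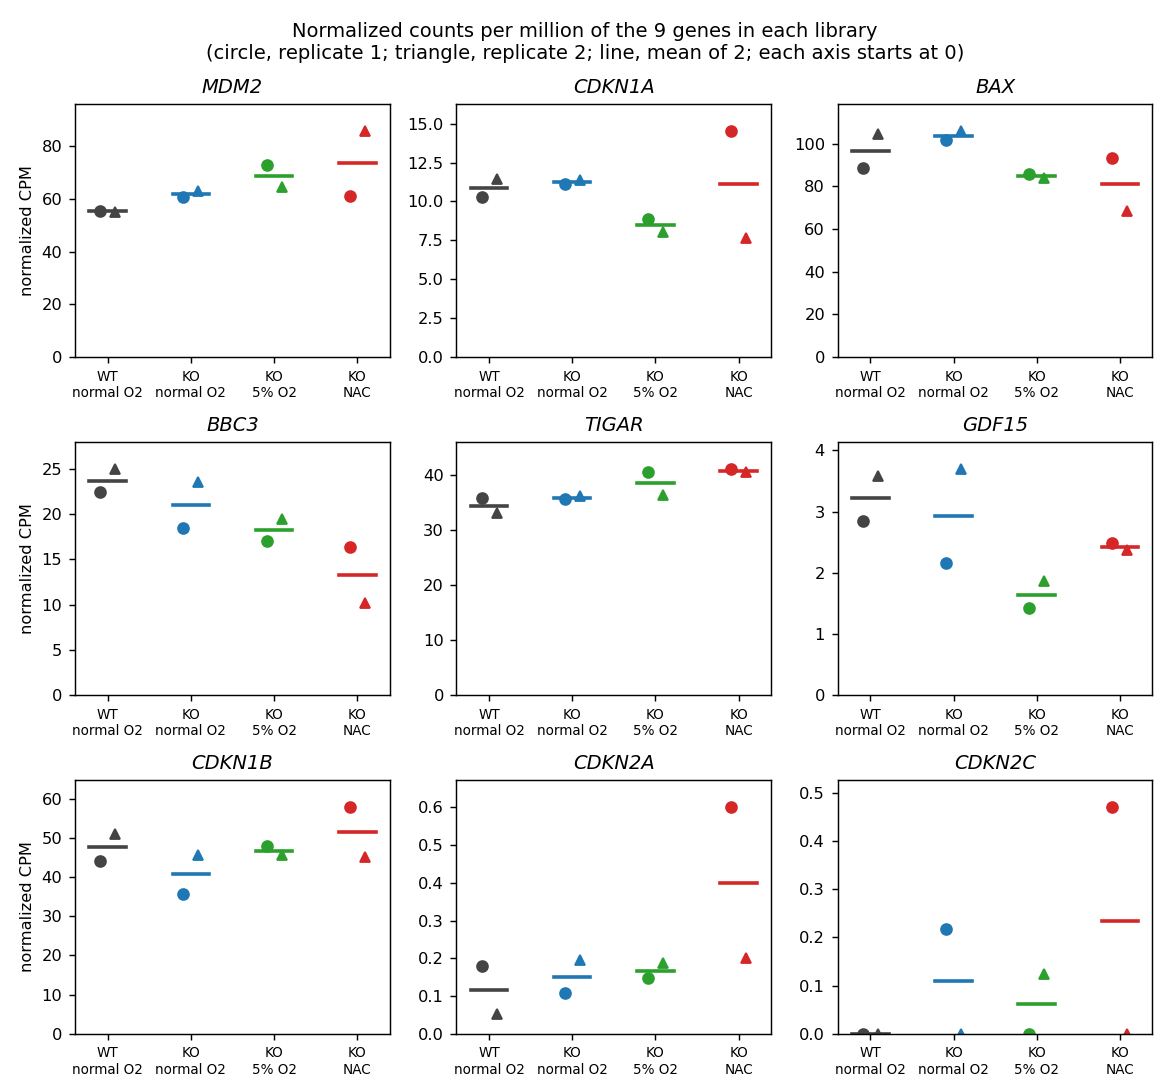
Normalized CPM (vertical axis, starting at 0) of the 9 genes in each of the 8 libraries, by group (horizontal axis), with replicate 1 as circles, replicate 2 as triangles and the mean of 2 as a line. CDKN1A was highest in the first NAC library, at 14.5 CPM, as were CDKN2A and CDKN2C, and BBC3 was lowest in the second, at 10.2 CPM.

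Loss of UBQLN1 at normal O2 did not move any of the 7 tested genes past the threshold. MDM2, the feedback inhibitor of p53, was at 55.5 and 55.1 CPM in WT and at 60.7 and 63.0 in KO. Both KO libraries lay above both WT libraries, yet the difference was small (log2 fold change 0.16, SE 0.14, 95% interval -0.14 to 0.46, edgeR adjusted p = 0.58). CDKN1A was at 10.3 and 11.4 CPM in WT and at 11.1 and 11.4 in KO. These values overlapped, and the interval of the log2 fold change ran from -0.47 to 0.58 around 0.05, so changes of the p21 transcript within those bounds were not excluded. The width of the interval rests on a spread shared over all 8 libraries, with the NAC libraries at 14.5 and 7.65 CPM.

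The apoptosis genes were as close. BAX was at 88.5 and 105 CPM in WT and 102 and 106 in KO (log2 fold change 0.10, interval -0.19 to 0.39). BBC3 was at 22.4 and 24.9 CPM in WT and 18.4 and 23.5 in KO (log2 fold change -0.17, interval -0.61 to 0.26). For both genes the 2 groups overlapped. TIGAR, at 35.8 and 33.1 CPM in WT and 35.6 and 36.2 in KO, had the narrowest interval (-0.16 to 0.29 around 0.06). The widest was that of GDF15, at 2.85 and 3.58 CPM in WT and 2.17 and 3.69 in KO, whose interval of -0.82 to 0.55 around -0.13 left room for a large fall. CDKN1B, the p27 gene, was at 44.1 and 51.2 CPM in WT and 35.8 and 45.8 in KO (log2 fold change -0.22, interval -0.54 to 0.09). In all, 0 of 7 genes were called by edgeR, 0 had an unadjusted p under 0.05 and 0 were called by DESeq2. Over all 15916 tested genes 1.96% were called, 1.34% higher and 0.622% lower, so a count of 0 among 7 does not set these genes apart.

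CDKN2A and CDKN2C were near the detection limit. CDKN2A had 6 and 2 counts in WT and 4 and 8 in KO, and CDKN2C had 0 and 0 in WT and 8 and 0 in KO. A count of 0 allows up to 3 counts of the 32591050 and 37650859 in the 2 WT libraries, a limit that covers counting error only. The limit takes counts as independent. It would be higher if both reads of a pair were counted, and whether they were is not given. Neither gene was called when the filter was left out (adjusted p = 0.95 and 0.37), and no fold change is given at these counts.

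Few other genes of the pathway passed in KO against WT, where 1.34% of all tested genes rose and 0.622% fell. Of 38 further p53 targets, edgeR called 0 and DESeq2 1, and at an unadjusted edgeR p under 0.05, 1 lay higher and 5 lower. When the first or the second NAC library was left out, 1 rose and 3 fell. Over all tested genes, 7.98% and 7.86% were called in either direction in those fits, and 6.43% with DESeq2. The median log2 fold change of the 38 was -0.04 against 0.00 over all tested genes. MDM4, the partner of MDM2 that masks the p53 activation domain, was at 5.69 and 7.34 CPM in WT and 11.7 and 8.11 in KO (log2 fold change 0.60, adjusted p = 0.18). Among 12 p53 regulators 2 rose and 0 fell: CREBBP, an acetyltransferase and p53 coactivator (log2 fold change 0.63, SE 0.12, adjusted p = 0.020), and HIPK2, a kinase that phosphorylates p53 (0.55, SE 0.12, adjusted p = 0.041). DESeq2 called 4 of the 12 higher and 0 lower, and 6.43% of all tested genes in either direction. With a trend over transcript length and GC content removed, neither CREBBP nor HIPK2 passed in edgeR (adjusted p = 0.071 and 0.14). Of 21 cyclin, kinase and RB pathway genes, 1 rose and 0 fell. It was CCND1, the cyclin D1 partner of CDK4 and CDK6, at 316 and 290 CPM in WT and 443 and 437 in KO (log2 fold change 0.54, SE 0.08, adjusted p = 0.0071). CDKN1C, the p57 inhibitor, was at 12.4 and 16.7 CPM in WT and 5.91 and 7.53 in KO, without overlap, but did not pass (log2 fold change -1.11, SE 0.60, adjusted p = 0.37). That SE rests on a spread shared over all 8 libraries, and CDKN1C was at 15.9 and 2.10 CPM in the 2 NAC libraries. A fall of CDKN1C in KO is therefore not excluded.

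**Figure D2:**
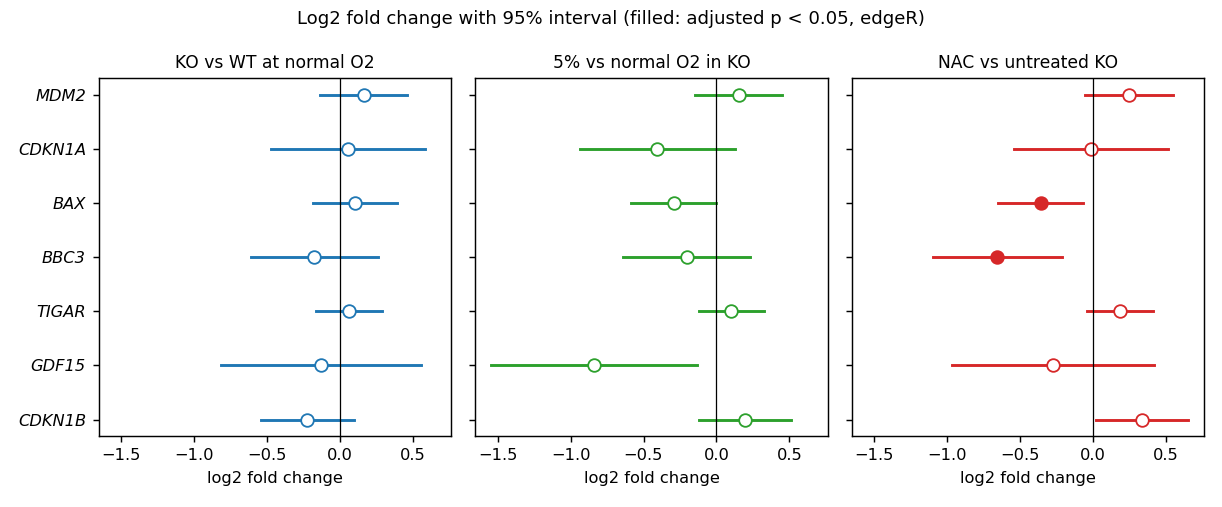
Log2 fold change (horizontal axis) of the 7 tested genes, with its 95% interval as a line, for KO against WT at normal O2, for 5% against normal O2 in KO, and for NAC against untreated KO. Points are filled where the edgeR adjusted p was under 0.05, which held for BAX and BBC3 with NAC.

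With NAC, the apoptosis genes of the list were lower in KO hESCs. BBC3, at 18.4 and 23.5 CPM in untreated KO, was at 16.3 and 10.2 with NAC. Both NAC libraries lay below both untreated ones, and BBC3 fell 1.58-fold (log2 fold change -0.66, SE 0.20, edgeR adjusted p = 0.019). BAX went from 102 and 106 CPM to 93.2 and 68.6, again without overlap, and fell 1.28-fold (log2 fold change -0.36, SE 0.13, adjusted p = 0.046). Thus 2 of the 7 tested genes were called, both lower, where 44.6% of all tested genes were called and 20.8% were lower, so the share among the 7 was close to the background.

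Both calls depended on how the libraries were treated. The second NAC library carried most of the fall: without it BBC3 was at -0.36 (adjusted p = 0.087) and BAX at -0.16 (0.29), and without the first, which held the stromal markers, at -1.05 (3.2e-04) and -0.60 (8.0e-04). Fold changes between NAC and untreated KO also declined with the GC content of the transcript (Spearman correlation across 14828 genes -0.50, a description, since genes are not independent), and the BBC3 transcript, at 69.7% GC, was the most GC-rich of the 9. With the length and GC trend removed, BBC3 was at -0.16 (adjusted p = 0.62), whereas BAX kept its size at -0.35 and missed the threshold (0.060).

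MDM2 and TIGAR were not called with NAC. MDM2 was at 60.7 and 63.0 CPM in untreated KO and at 61.2 and 85.7 with NAC (log2 fold change 0.25, SE 0.14, adjusted p = 0.17). The 2 NAC libraries disagreed, and the call turned on them: without the first, MDM2 was at 0.47 (adjusted p = 0.0028), and without the second at -0.02 (0.92). TIGAR was at 41.1 and 40.6 CPM with NAC, above both untreated libraries (log2 fold change 0.18, SE 0.10, adjusted p = 0.17). GDF15 was at 2.48 and 2.37 CPM with NAC, inside the range of the untreated libraries (log2 fold change -0.27, interval -0.97 to 0.42).

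The 2 NAC libraries differed most for CDKN1A among the 7 tested genes. It was at 14.5 CPM in the first and 7.65 in the second, the highest and the lowest of all 8 libraries, a 1.90-fold gap. The group mean therefore hardly differed from untreated KO (log2 fold change -0.02, SE 0.24, adjusted p = 0.96), while CDKN1A was at -0.56 without the first library (adjusted p = 0.022) and at 0.37 without the second (0.084). The gaps of BBC3, MDM2 and BAX were 1.601-fold, 1.40-fold and 1.36-fold, and CDKN1B had a gap of 1.28-fold, as in untreated KO. CDKN1B was at 57.9 and 45.1 CPM with NAC (log2 fold change 0.34, SE 0.14, adjusted p = 0.080), again with the first library the highest of the 8, and passed only without the second (0.50, adjusted p = 0.0088) or without the second untreated library (0.52, 0.043), or with no filter on low counts (0.33, 0.017). CDKN2A had 23 and 6 counts with NAC, against 2 to 8 in the other groups, and CDKN2C had 18 and 0.

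CDKN1C and CDKN2B, no members of the 9, were also higher in the first NAC library than in the second. CDKN1C was at 15.9 CPM in the first NAC library and 2.10 in the second, so that it was called higher than in untreated KO without the second library (log2 fold change 1.25, adjusted p = 0.0018) and lower without the first (-1.68, 0.0016). CDKN2B, the p15 gene beside CDKN2A, had 10 counts in the first NAC library and 0 in the other 7. The stromal markers, at 935 and 546 summed CPM, and DDIT4, a hypoxia- and stress-induced inhibitor of mTOR at 163 and 15.2 CPM, were likewise higher in the first of the 2 NAC libraries, and their part in the result was not tested. CDKN2D, the p19 gene, did not follow, at 1.20 and 1.27 CPM. CDKN3, a phosphatase that acts on CDK1 and CDK2 and peaks in dividing cells, was at 37.6 and 38.05 CPM with NAC against 19.9 and 21.4 in untreated KO. CDKN3 rose 1.83-fold (log2 fold change 0.87, SE 0.12, adjusted p = 1.3e-04), kept its call without the first and without the second NAC library, and with the length and GC trend removed was at 0.07 (0.75). In bulk RNA, fewer cells that express a gene and less RNA per cell cannot be told apart.

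**Figure D3:**
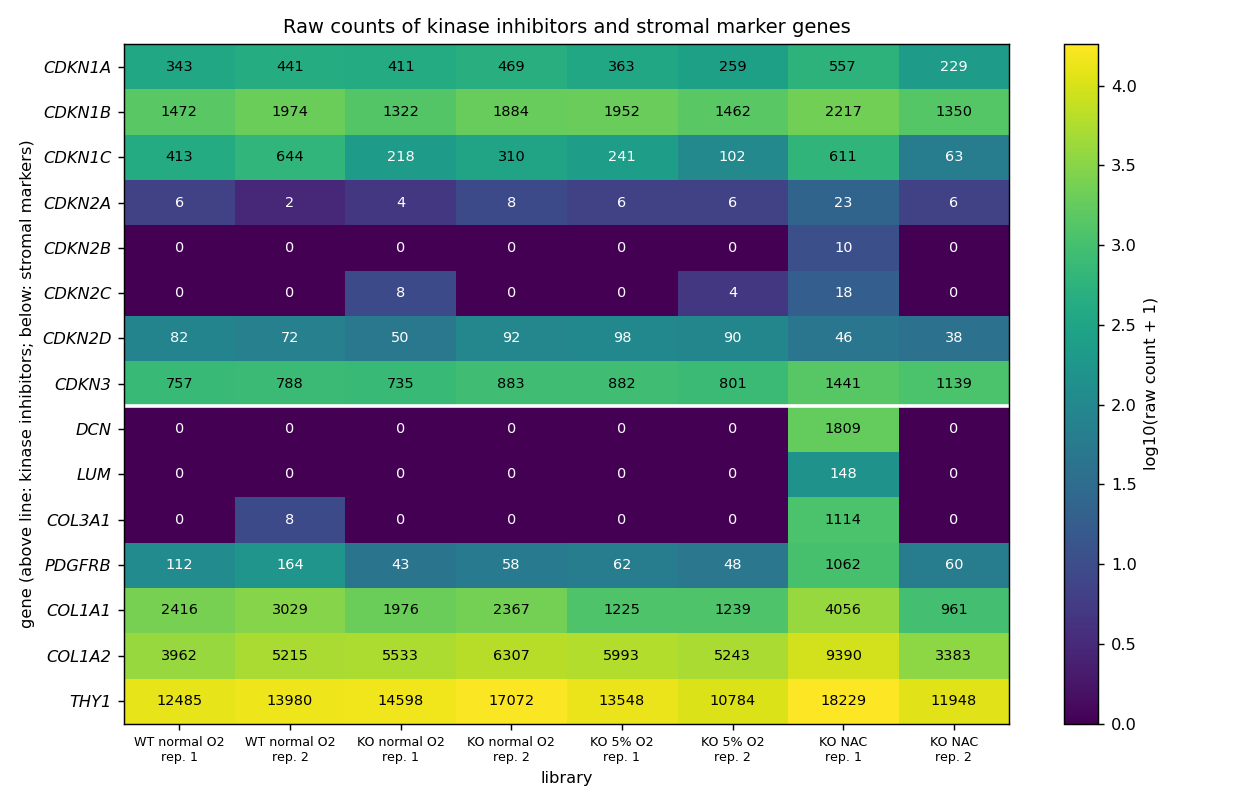
Raw read counts (numbers in the cells, colour as log10 of count + 1) of 8 kinase inhibitors, above the white line, and 7 stromal markers, below it, with 1 column per library. The first NAC library is the only one with counts of DCN, LUM or CDKN2B, and holds the most counts of CDKN1A, CDKN1B, CDKN2A and CDKN2C.

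The further p53 targets moved in both directions with NAC: 10 of 38 rose and 5 fell, against 23.8% and 20.8% of all tested genes, and their median log2 fold change was 0.05 (0.02 over all). The 3 that rose most were PMAIP1, which encodes the BH3-only protein NOXA, at 111 and 109 CPM in untreated KO and 292 and 195 with NAC (log2 fold change 1.15, SE 0.15, adjusted p = 8.8e-05), CCNG1, cyclin G1 (0.95, SE 0.12), and TRIAP1, an inhibitor of apoptosis (0.93, SE 0.10). PMAIP1 and BBC3, both BH3-only genes and p53 targets, thus changed in opposite directions. The 3 that fell most were SUSD6 (-1.11, SE 0.22), PHLDA3, an inhibitor of AKT (-1.11, SE 0.14), and XPC, which recognises DNA damage in nucleotide excision repair (-0.81, SE 0.11). All 15 kept their call and direction without the first NAC library and without the second. With the length and GC trend removed 8 did, 4 in each direction. SUSD6, PHLDA3 and XPC were among them, while PMAIP1 (0.23, adjusted p = 0.26), CCNG1 (0.23, 0.17) and TRIAP1 (0.26, 0.069) were not.

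**Figure D4:**
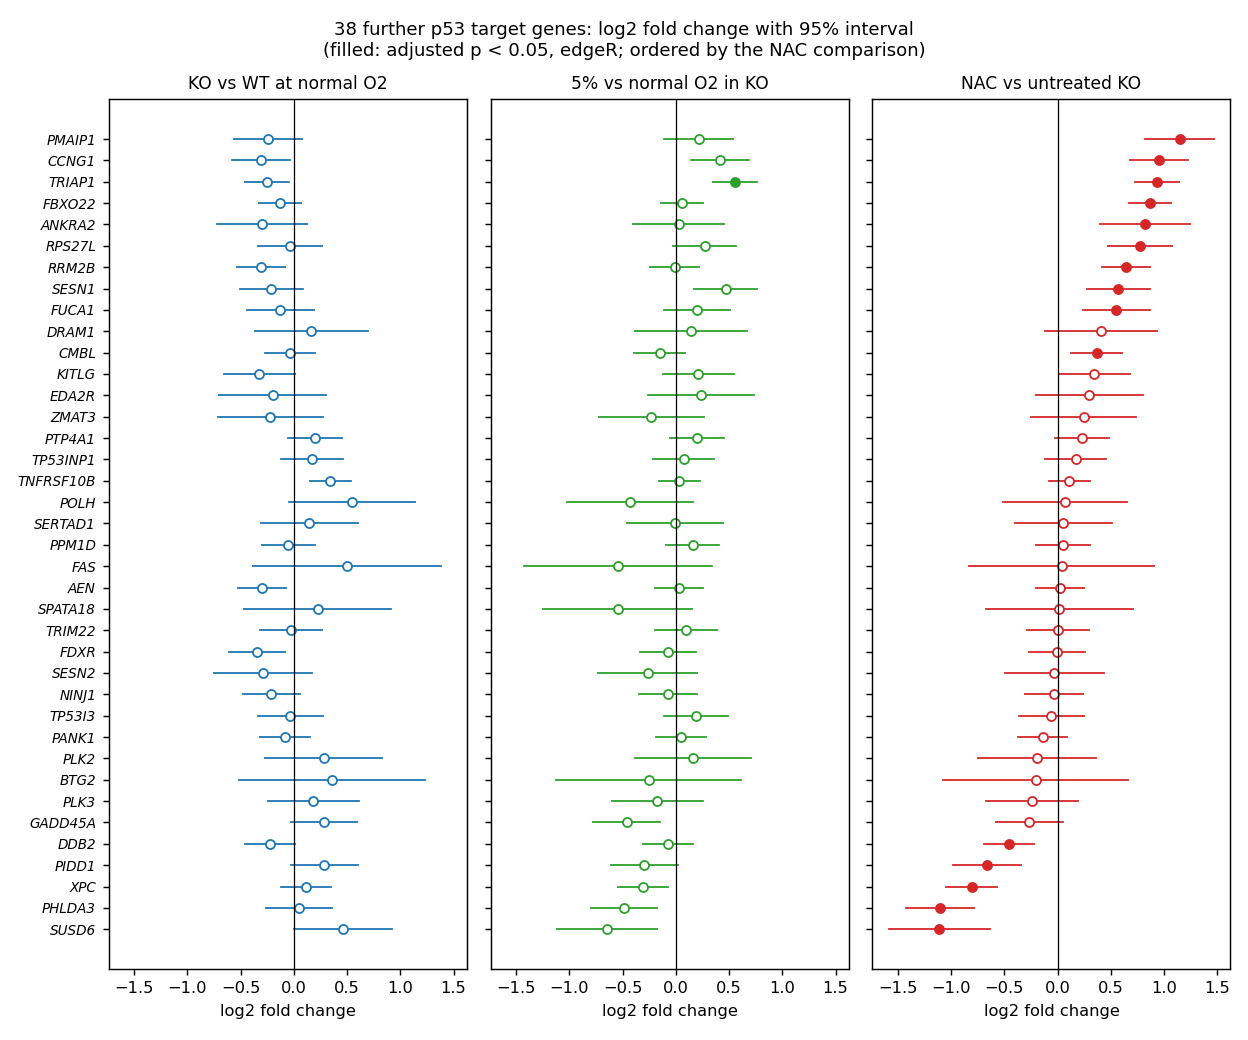
Log2 fold change (horizontal axis) with 95% interval of 38 further p53 targets in the same 3 comparisons, ordered by the NAC comparison, with filled points where the edgeR adjusted p was under 0.05. With NAC 10 genes lie to the right and 5 to the left as filled points, at 5% O2 TRIAP1 alone is filled, and none is in KO against WT.

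Among the regulators of p53, 5 of 12 fell with NAC and 1 rose, where 20.8% of all tested genes fell and 23.8% rose. The coactivators CREBBP (-1.59, SE 0.12) and EP300 (-1.23, SE 0.12) and the kinase gene HIPK2 (-1.37, SE 0.12) fell most. USP7, a deubiquitinase of MDM2 and p53 (-0.78), and PPP1R13L, the p53 inhibitor iASPP (-0.71), also fell, and CHEK2, a checkpoint kinase gene, rose (0.63). With the length and GC trend removed, CHEK2 and PPP1R13L lost their calls and the other 4 kept theirs. All 6 were kept without the first and without the second NAC library. MDM4 was at 9.66 and 12.1 CPM with NAC and was not called (0.14, adjusted p = 0.64).

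Of the 21 cyclin, kinase and RB pathway genes 8 rose and 6 fell with NAC. The background for each list here was 23.8% of all tested genes higher and 20.8% lower. CKS1B, a kinase subunit that helps degrade p27 (log2 fold change 1.06), CDK1 (0.88) and its partner CCNB1 (0.76) rose most, and CCND1 (-0.77), E2F2 (-0.76) and E2F1 (-0.66) fell most. With the length and GC trend removed 8 of these 14 kept their calls, 4 in each direction, and CDK1 (-0.12, adjusted p = 0.44) and E2F2 (-0.18, 0.44) were among the 6 that did not. Without the first NAC library 13 of 14 kept theirs, and 14 without the second. In the BCL2 family beyond BAX and BBC3, 2 of 13 rose, PMAIP1 and BID (0.56), and 6 fell, led by BOK (-0.92), HRK (-0.74) and BCL2 (-0.66), the last a gene that protects from apoptosis. With that trend removed, 3 of these 8 kept their calls, BOK and BID among them, and 6 did without the first NAC library and 7 without the second. Of 10 genes of the ATF4 stress response, which also drives GDF15, 3 rose, DDIT4 (2.36), VLDLR (1.29) and DDIT3 (1.06), and 1 fell, PPP1R15A (-0.57). None of the 3 rises held without the first NAC library (DDIT4 -0.20, adjusted p = 0.20; VLDLR 0.10, 0.62; DDIT3 0.53, 0.33).

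At 5% O2, none of the 7 tested genes passed the threshold in KO hESCs. GDF15 had the largest difference, at 2.17 and 3.69 CPM at normal O2 and 1.42 and 1.87 at 5% O2. The libraries did not overlap, and the unadjusted p of 0.024 did not survive adjustment (log2 fold change -0.84, SE 0.32, interval -1.54 to -0.13, edgeR adjusted p = 0.13). BAX was at 85.8 and 83.8 CPM at 5% O2, below both KO libraries at normal O2 (log2 fold change -0.29, SE 0.13, adjusted p = 0.20). It was called when only these 4 libraries were fitted (-0.29, adjusted p = 0.018) and when either NAC library was left out (-0.29, 0.041 and 0.042).

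CDKN1A was at 8.90 and 8.07 CPM at 5% O2, also below both KO libraries at normal O2, with a wide interval (log2 fold change -0.41, interval -0.94 to 0.12, adjusted p = 0.33). MDM2, at 72.7 and 64.6 CPM, and TIGAR, at 40.6 and 36.3, were above theirs by 0.15 and 0.10 on the log2 scale, with adjusted p-values of 0.54 and 0.59. BBC3, at 17.0 and 19.4 CPM, and CDKN1B, at 47.9 and 45.6, overlapped with normal O2. CDKN2A had 6 and 6 counts and CDKN2C 0 and 4. In all, 0 of 7 genes were called where 7.81% of all tested genes were, 3.68% higher and 4.13% lower, 2 had an unadjusted p under 0.05, and DESeq2 called 0 and gave no adjusted p for GDF15.

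At 5% O2 the number of pathway genes called depended on the fit, as did the share called over all genes. In the fit reported, 3.68% of all tested genes rose and 4.13% fell. Of the 38 further p53 targets TRIAP1 rose, from 45.0 and 44.2 CPM to 67.4 and 63.5 (log2 fold change 0.55, SE 0.10, adjusted p = 0.010), 0 fell, and the median was 0.03 against 0.00 over all genes. When the first or the second NAC library, neither part of this comparison, was left out, 3 of the 38 rose and 4 fell. DESeq2 called 3 higher and 1 lower. Over all tested genes, 16.8% and 16.5% were called in either direction in those fits and 17.7% with DESeq2, against 7.81% in the fit reported. The regulators CREBBP (-0.71, adjusted p = 0.0092), HIPK2 (-0.63, 0.015) and EP300 (-0.46, 0.039) fell and 0 of 12 rose. The mitotic and S phase cyclin genes CCNB2 (0.46), CCNA2 (0.42) and CCNB1 (0.31) rose, and 0 of 21 genes of their list fell. None of these 7 calls held with the length and GC trend removed. DDIT4 rose from 17.3 and 17.4 to 186 and 189 CPM (log2 fold change 3.43, SE 0.71, adjusted p = 0.019) and held its call with that trend removed (3.49, 0.042). CDKN1C was at 5.91 and 3.18 CPM (-0.56, adjusted p = 0.63).

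Set in the order of their means, the 4 groups ran in the same order for MDM2 and TIGAR and in the opposite order for BBC3. MDM2 had 55.3 ± 0.290 CPM in WT (SD, n = 2), 61.9 ± 1.63 in KO, 68.7 ± 5.77 at 5% O2 and 73.4 ± 17.3 with NAC. No neighbours in this order differed past the threshold, and of the outer pairs NAC-treated KO differed from WT (log2 fold change 0.41, SE 0.14, edgeR adjusted p = 0.036), while KO at 5% O2 did not (0.31, adjusted p = 0.24). TIGAR had 34.4 ± 1.93, 35.9 ± 0.463, 38.5 ± 3.03 and 40.8 ± 0.377 CPM in that order, and no pair differed past the threshold. BBC3 fell through the same order, with 23.7 ± 1.78, 21.0 ± 3.59, 18.2 ± 1.73 and 13.3 ± 4.33 CPM. No neighbours differed past the threshold, and NAC-treated KO differed from WT (-0.83, SE 0.20, adjusted p = 0.0071) as well as from untreated KO. With the length and GC trend removed, MDM2 against WT was at 0.13 in KO, 0.31 at 5% O2 and 0.29 with NAC. For MDM2, 5% O2 and NAC thus changed places. BBC3 was then at -0.247, -0.250 and -0.41, and TIGAR at 0.00, 0.19 and 0.24. Across the 6 pairs of groups, 38.2% of all genes were called between NAC-treated KO and WT (20.6% higher, 17.6% lower), 29.1% between NAC and 5% O2 and 3.27% between KO at 5% O2 and WT, and of the 7 genes 2, 0 and 0 were. The study's own criterion, an absolute log2 fold change over 1 with an unadjusted p under 0.05, was applied here to the edgeR fit. The study itself used DESeq2. By this criterion 0 of the 7 genes were called in any pair. Of all genes it called 2.57% in KO against WT, 9.02% with NAC and 2.02% at 5% O2 in KO. It called 4.42% between NAC and 5% O2, 6.2% between NAC-treated KO and WT, and 3.53% between KO at 5% O2 and WT.

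The 2 calls between NAC-treated KO and WT also leaned on single libraries. Without the second NAC library MDM2 was at 0.15 (adjusted p = 0.31), and BBC3 missed the threshold without the second WT library (-0.79, 0.0504). With the length and GC trend removed MDM2 was at 0.29 (0.17) and BBC3 at -0.41 (0.20). CDKN1A, at 0.04 in this pair (adjusted p = 0.93), was at -0.51 without the first NAC library (0.040). For NAC against 5% O2, 0 of 7 were called by edgeR and by DESeq2, and 1 had an unadjusted p under 0.05, BBC3 (-0.45, adjusted p = 0.12). BBC3 (-0.84, 0.0039) and MDM2 (0.32, 0.043) were called there without the first NAC library, and CDKN1A (0.77, 0.0028) without the second. For KO at 5% O2 against WT, edgeR and DESeq2 called 0 and 2 had an unadjusted p under 0.05, GDF15 (-0.97, SE 0.32, adjusted p = 0.13) and MDM2. MDM2 passed there without the first or without the second NAC library (adjusted p = 0.041 each).

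For the other genes the order differed. GDF15 was highest in WT (3.21 ± 0.517 CPM), then KO (2.93 ± 1.08), NAC (2.43 ± 0.0764) and 5% O2 (1.65 ± 0.316). BAX was highest in KO (104 ± 3.11), then WT (96.6 ± 11.4), 5% O2 (84.8 ± 1.38) and NAC (80.9 ± 17.4). CDKN1A was at 11.3 ± 0.179 in KO, 11.1 ± 4.87 with NAC, 10.9 ± 0.816 in WT and 8.49 ± 0.589 at 5% O2. CDKN1B was highest with NAC (51.5 ± 9.03), then WT (47.6 ± 4.99), 5% O2 (46.7 ± 1.64) and KO (40.8 ± 7.02). No neighbours in these 4 orders differed past the threshold.

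Over the 8 libraries, the log2 levels of MDM2 and BBC3 ran against each other (Pearson r = -0.88) and those of BAX and BBC3 ran together (0.83), while CDKN1A went with BAX (0.74) and not with CDKN1B (0.36). Among 12366 genes searched, those most like MDM2 were OTX2 (0.99), ZNF506 (0.99) and ZNF616 (0.97), those most like CDKN1A were PEX14 (0.97), MAN1A1 (0.96) and GPC2 (0.94), and those most like GDF15 were HVCN1 (0.96), APBA3 (0.95) and LOC100996842 (0.94). These correlations describe 8 libraries that share groups and carry no p. The MDM2 and BBC3 transcripts had 39.5% and 69.7% GC. In KO, fold changes declined with GC content both with NAC and at 5% O2 (Spearman correlation -0.50 and -0.34 across 14828 genes). The part of GC content in the correlation of MDM2 with BBC3 was not tested.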

How the data were processed

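RNA-seq of WA26 hESCs was analysed from 1 deposited table of raw read counts per gene. The authors trimmed the reads, used HISAT2 for alignment to hg38 and made the counts with featureCounts at default settings, without normalization. The annotation is not given in the sources used here. Whether read pairs or single reads were counted is not given in the sources used here. Of counts from 1 to 10, 68.5% to 72.0% were even, against 49.6% to 51.5% of counts of 1000 or more. By GENCODE v44, MDM2 shares 1.8% of its exonic bases with CPM and 10.5% with a lncRNA on the opposite strand and 5.9% with a pseudogene, and TIGAR shares 20.8% with a protein-coding gene on its own strand. Reads there can be lost or misassigned. Also, 5.7% and 6.2% of the 31-base words of MDM2 and TIGAR recur on alternate scaffolds, where reads can be lost. Groups came from the GEO labels.

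Genes were filtered with filterByExpr (minimum count 10), scaled by TMM and compared in edgeR 4.0.16 (R 4.3.3) by its quasi-likelihood F test, using 1 term per group over all 8 libraries and two-sided p-values adjusted by Benjamini-Hochberg over 15916 genes (called: adjusted p under 0.05). CPM are counts scaled by TMM-adjusted library size. RPKM use GENCODE v44 canonical transcripts. The biological coefficient of variation was 13.7%. On simulated data for KO against WT, 93 of 100 genes with a log2 change of 1 and 100 of 100 with 2 were recovered among 15692 genes. The changed genes were drawn only from those above a minimum level, which GDF15 did not reach. Each simulated gene had the spread typical of its level, so recovery of genes that vary more was not measured. Replicates of a group differed by more than counting noise (chi-square per degree of freedom 9.32 to 30.5). Alternatives were DESeq2 1.42.0, other scaling, filters, a replicate block, fewer libraries and removal of a smooth trend over transcript length and GC content (mgcv 1.9.3, known for 93.2% of genes). Named from each further list were at most 3 called genes per direction with the largest change, plus MDM4, UBQLN1, the other kinase inhibitors and p53 regulators. DCN, LUM and COL3A1 and the values of genes in single libraries were singled out after their values were seen. Genes most like a member were the 3 with the highest Pearson r. The members and lists were chosen with earlier results of these data known. A gene named in the plan is not reported here.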

Additional observations from a re-analysis of the deposited data

How the results depend on the processing

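In KO against WT, 0 of the 7 tested genes were called under every alternative tried, which were DESeq2, other scaling and filters, blocks, fewer libraries, trend removal, the study's criterion (absolute log2 fold change over 1 and p under 0.05) and leaving out each library. Of the further p53 targets in that comparison, 0 were called in the fit reported, 1 with DESeq2, 3 with no filter, 3 with only the libraries compared, and 0 to 4 with 1 library left out. With NAC against untreated KO, 2 of the 7 genes were called, against 1 with a replicate block, 0 with only the libraries compared, 0 with the trend removed, 0 by the study's criterion and 1 to 4 with 1 library left out. The further targets called there were 15, and 3 by the study's criterion. At 5% O2, 0 of the 7 were called, against 1 with only the libraries compared and 0 to 1 with 1 library left out. The further targets called there were 1, against 4 with DESeq2, 2 with upper quartile scaling, 5 with no filter, 3 with at least 10 counts in every library, 2 with a replicate block, 7 with only the libraries compared, 0 with the trend removed, 0 by the study's criterion and 0 to 7 with 1 library left out. For NAC against 5% O2 the 7 genes had 0 calls, 1 with no filter and 0 to 2 with 1 library left out. For NAC-treated KO against WT they had 2, against 1 with upper quartile scaling, 0 with a replicate block within genotype, 1 with only the libraries compared, 0 with the trend removed, 0 by the study's criterion and 0 to 4 with 1 library left out. For KO at 5% O2 against WT they had 0, 1 with no filter (GDF15) and 0 to 1 with 1 library left out. The cause of these differences was not tested. One value changed direction and was then called: CDKN1A in NAC-treated KO against WT, at -0.51 without the first NAC library and 0.42 without the second. Of 713 refitted values of single genes, 669 stayed on the same side of the threshold. Counts over all genes moved too. In KO against WT, 312 became 841 with DESeq2 and 189 with the trend removed, and 7100 with NAC became 4036 with the trend removed. At 5% O2, 1243 (586 higher) became 2097 with DESeq2 and 313 (258 higher) with the trend removed.

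The replicate numbers did not pair the libraries: deviations from the group means of same-numbered libraries correlated between -0.02 and 0.08 over 15916 genes. With the replicate block BAX with NAC was at -0.36 (adjusted p = 0.052) and BBC3 at -0.65 (0.027). The low counts of CDKN2A and CDKN2C limit what can be seen of them, and for GDF15 the untreated KO libraries alone differed 1.70-fold. A library left alone in its group was assumed to vary like the others.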
